A study of Arabidopsis thaliana with 18 samples.

Results

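The UGT genes measured here encode family 1 glycosyltransferases of Arabidopsis thaliana, enzymes that move a sugar from a UDP-sugar onto a small acceptor molecule. The members are all genes whose symbol in the array's probe annotation starts with UGT and a digit and which have a probeset matching that gene alone. There are 47 of them, among 13350 genes with a single-gene probeset, and each has exactly 1 such probeset. All 47 carry the same symbol in the reference gene table. Another 3 probesets that match a UGT together with a second gene were left out. UGT genes with no single-gene probeset under a UGT symbol were not analysed here.

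Root protoplasts of Col-0 seedlings carrying the Pwer::GFP reporter, 7 days old, were made by 3 h of digestion and transformed with polyethylene glycol. The reporter uses the promoter of WEREWOLF, which is active in the epidermis and lateral root cap. The over-expression plasmids were pBeaconRFP_IAA19mII and pBeaconRFP_IAA7mII, which over-express IAA19mII or IAA7mII, and the control plasmid was the empty vector pMON999_mRFP. After a night, each population received 5 µM indole-3-acetic acid (IAA, the main natural auxin) or solvent alone (mock) for 3 h, and cells carrying both the green and the red label were sorted for RNA. The 6 groups are therefore IAA19mII with IAA, IAA19mII mock, IAA7mII with IAA, IAA7mII mock, empty vector with IAA and empty vector mock, each with 3 ATH1 arrays. IAA7 and IAA19 belong to the Aux/IAA proteins, repressors of auxin-responsive genes whose breakdown is triggered by auxin and needs domain II of the protein. The labels do not spell out mII, taken here as an altered domain II, nor the promoter that drives the over-expression. The 2 over-expression plasmids share a backbone that differs from that of the empty vector, so a difference from empty vector cells cannot be told apart from a difference of backbone, while IAA19mII against IAA7mII compares plasmids of the same backbone.

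Glycosylation by UGT enzymes changes the activity, solubility and storage of their acceptors. Acceptors in plants include hormones (auxin, cytokinin, abscisic acid and salicylic acid), flavonoids, precursors of lignin and foreign chemicals. A sugar ester or glucoside of a hormone is commonly a storage or inactive form. Symbols give the family by number, the subfamily by letter and the gene by the last number, and genes of a subfamily often sit side by side on a chromosome.

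Values are MAS5 signals on a linear scale, scaled alike over arrays by the authors. Changes are on the scale log2(signal + 16), with the standard error after ±, and understate changes of low signals. A gene was called when its limma adjusted p was under 0.05, adjusted over all 16892 tested probesets. Replicates were more scattered in the over-expressors (median SD of a tested probeset 0.35 to 0.44 by group) than in empty vector cells (0.29 with IAA, 0.26 in mock), while the fit pools the spread over groups. Of the fixed epidermis and lateral root cap markers, only EXPA7, a root hair expansin gene, had a single-gene probeset. Its signal was 64 to 134.1 in IAA19mII cells with IAA and 40.8 to 203 in mock, 19.2 to 63.6 in IAA7mII cells with IAA and 25.9 to 39.2 in mock, and 19.1 to 217.7 in empty vector cells with IAA and 51.1 to 54.7 in mock. No listed marker of cortex and endodermis, stele or green tissue could be measured here, so the labelled cell type could not be checked further.

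Among the 47 members, 19 were above the 40th percentile of signals on all 18 arrays, and 41 were above it on at least 3 arrays and were tested. The 6 members that were not tested were UGT71B8, UGT72B3, UGT72E3, UGT78D1, UGT84B1 and UGT84B2. UGT84B1 and UGT84B2 were below the percentile on every array. Of the 41 tested members, 14 (34.1%) were called in at least 1 of 12 comparisons, against 35.9% of all tested probesets, and 13 of those 14 were above the percentile on all arrays. Every one of the 34 calls fell in a comparison between vectors, and none in a response to IAA or in a difference between responses. The comparisons between vectors called 4.37% to 23.5% of all tested probesets. The responses and their differences called 0.0178% to 0.734%. The members called in the most comparisons were UGT71B5 (5 comparisons) and UGT76D1, UGT73B4 and UGT73D1 (4 each).

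**Figure D1:**
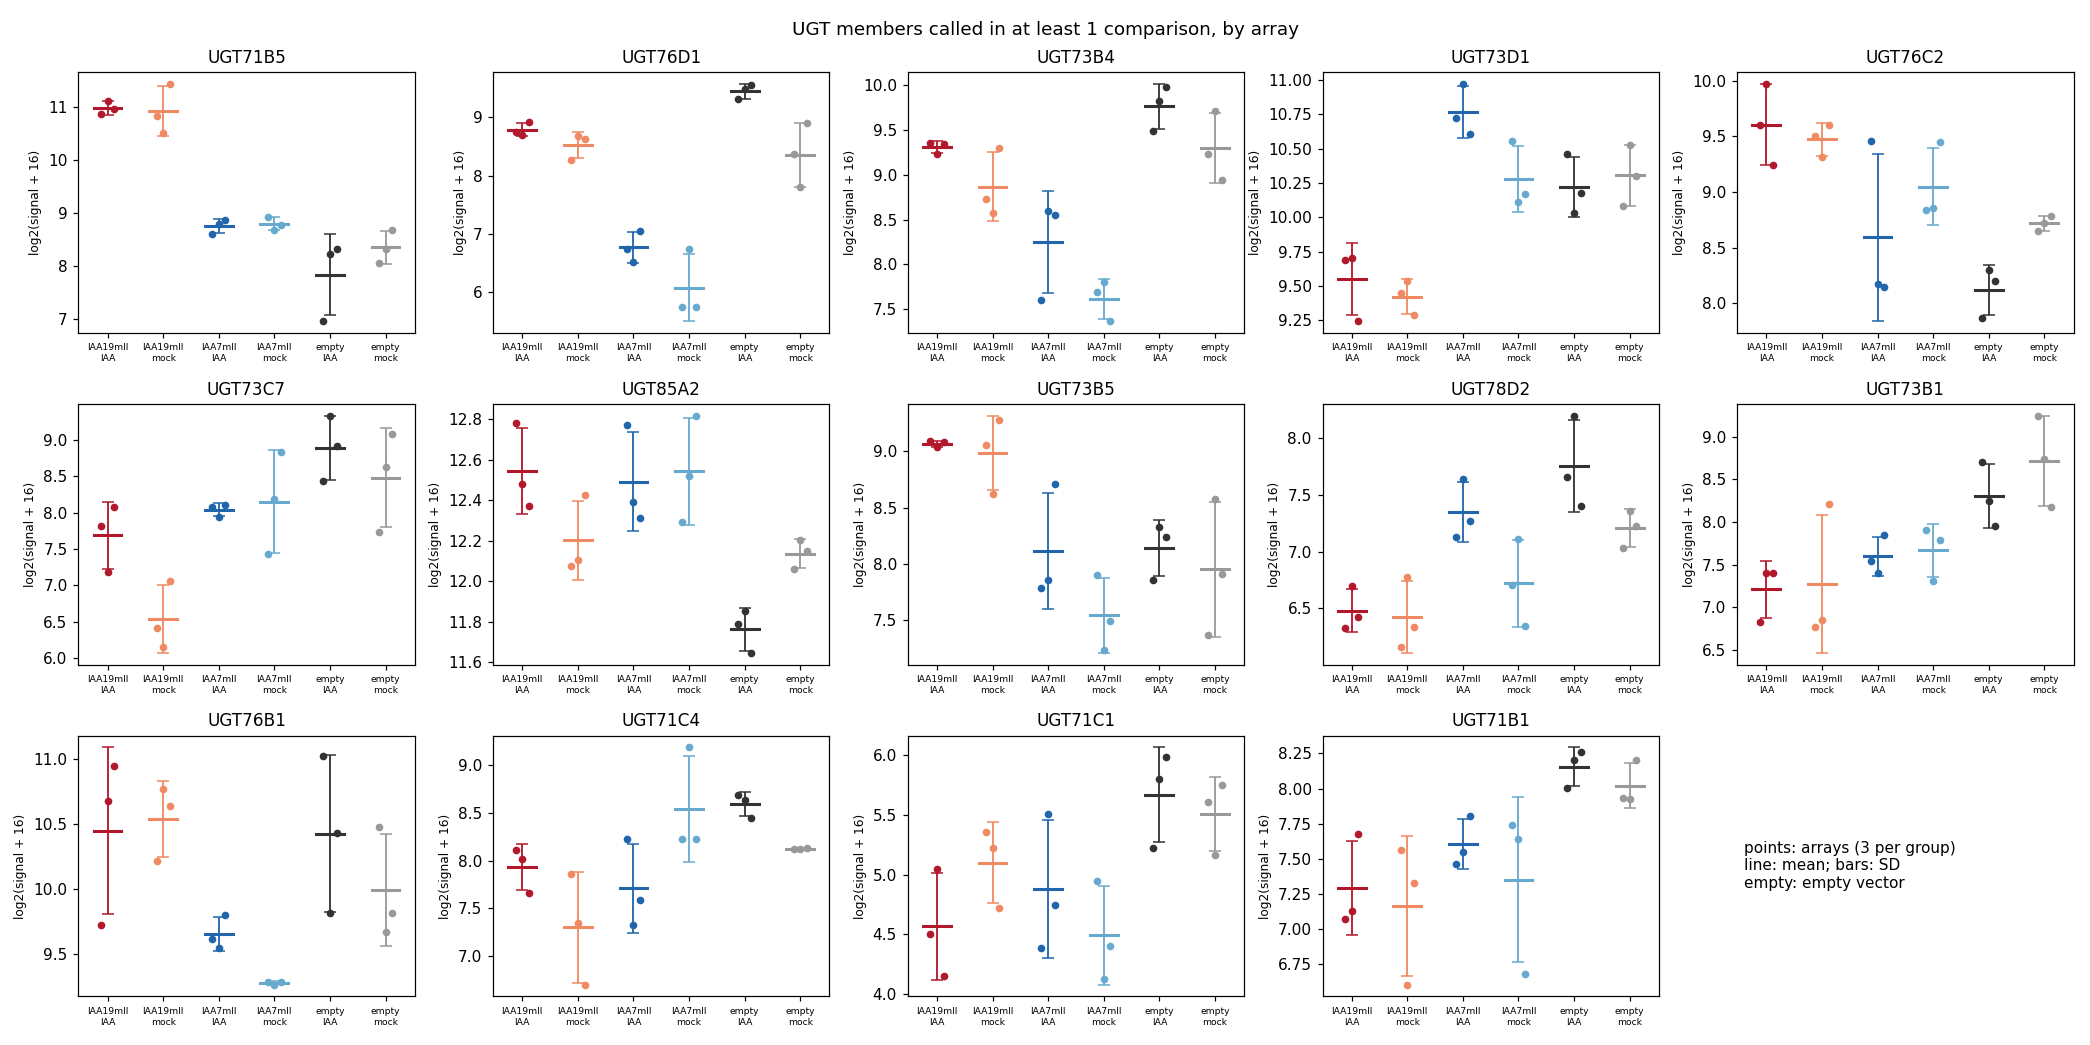
Level of the 14 UGT genes called in at least 1 comparison, as log2(signal + 16) on each of the 18 arrays (points), with the group mean (line) and SD (bars, n = 3). From left to right the groups are IAA19mII with IAA, IAA19mII mock, IAA7mII with IAA, IAA7mII mock, empty vector with IAA and empty vector mock. UGT71B5 was high on all 6 IAA19mII arrays and UGT76D1 was low on all 6 IAA7mII arrays.

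The first genes act on salicylic acid and related compounds or belong to the stress and xenobiotic group. UGT76D1 (AT2G26480) attaches sugar to dihydroxybenzoic acids, which are breakdown products of salicylic acid. With IAA its signals were 414, 401 and 468 in IAA19mII cells, 91.3, 75.5 and 116 in IAA7mII cells and 619, 698 and 739 in empty vector cells. The mock signals were 294, 395 and 381 in IAA19mII cells, 37.5, 90.5 and 37.9 in IAA7mII cells and 314, 207 and 464 in empty vector cells. All 6 IAA7mII arrays lay below all 12 others. In bulk samples such as these, fewer cells of a type and less RNA per cell cannot be told apart.

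UGT76D1 fell in IAA7mII cells against empty vector cells, 6.41-fold with IAA (-2.68 ± 0.31, limma adjusted p = 3.02e-07) and 4.86-fold in mock (-2.28 ± 0.31, limma adjusted p = 7.66e-06). Against IAA7mII cells it was 4.06-fold higher in IAA19mII cells with IAA (2.02 ± 0.31, limma adjusted p = 6.69e-05) and 5.48-fold higher in mock (2.45 ± 0.31, limma adjusted p = 4.79e-06). IAA19mII against empty vector cells was not called (-0.66 ± 0.31, limma adjusted p = 0.122 with IAA, and 0.17 ± 0.31 in mock). With IAA, however, the IAA19mII arrays lay below the empty vector arrays without overlap. The 4 calls held in all 16 other settings tried for each. With a pseudocount of 64 in place of 16, the mock change was -1.69 for IAA7mII against empty vector and 1.84 for IAA19mII against IAA7mII.

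UGT76B1 (AT3G11340) glycosylates isoleucic acid, salicylic acid and N-hydroxypipecolic acid and restrains defence signalling. In mock its signals were 1173, 1733 and 1578 in IAA19mII cells, 609, 600.1 and 609.7 in IAA7mII cells and 1413, 802 and 887 in empty vector cells. With IAA they were 832, 1619 and 1960.1 in IAA19mII cells, 770.2, 731 and 875 in IAA7mII cells and 2071, 887 and 1367 in empty vector cells. The IAA7mII arrays were tightly grouped and lay below every empty vector array in both treatments, apart in mock from the IAA19mII arrays as well. The gene was 2.4-fold higher in IAA19mII than in IAA7mII cells in mock (1.26 ± 0.28, limma adjusted p = 0.00676), a call missed without the intensity trend (adjusted p = 0.0505). With IAA this difference was 0.80 ± 0.28, limma adjusted p = 0.0968. IAA7mII against empty vector cells gave -0.77 ± 0.28 with IAA and -0.71 ± 0.28 in mock, neither called. UGT74F1, a salicylic acid glucosyltransferase gene, was above the 40th percentile on 3 arrays and was called nowhere, with changes from -0.47 to 0.53.

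The neighbours UGT73B4 (AT2G15490) and UGT73B5 (AT2G15480) were both higher in IAA19mII than in IAA7mII cells in mock. UGT73B4 can conjugate breakdown products of the explosive TNT, and UGT73B5 takes part in the redox balance during the hypersensitive response to bacteria. With IAA, UGT73B4 signals were 640.4, 586 and 636 in IAA19mII cells, 178, 373 and 359 in IAA7mII cells and 704, 888 and 998 in empty vector cells. Mock arrays read 409, 364 and 615 in IAA19mII cells, 191, 207 and 149 in IAA7mII cells and 587, 824 and 474 in empty vector cells. Within each treatment the IAA7mII arrays lay below all others.

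UGT73B4 fell 2.86-fold in IAA7mII against empty vector cells with IAA (-1.52 ± 0.28, limma adjusted p = 0.000242) and 3.2-fold in mock (-1.68 ± 0.28, limma adjusted p = 0.000126), and both calls held in all 16 other settings. It was higher in IAA19mII than in IAA7mII cells by 1.06 ± 0.28, limma adjusted p = 0.0184, with IAA, and by 1.25 ± 0.28, limma adjusted p = 0.00605, in mock. The mock call was lost without IAA19mII mock replicate 3 (adjusted p = 0.0639). With IAA it was lost without IAA7mII IAA replicate 1 (adjusted p = 0.122) or IAA19mII IAA replicate 1 (adjusted p = 0.0538), and in a fit of only those groups (adjusted p = 0.0987). IAA19mII against empty vector cells was not called (-0.45 ± 0.28 with IAA, -0.43 ± 0.28 in mock).

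UGT73B5 signals with IAA were 529, 510.5 and 525 in IAA19mII cells, 204, 216 and 403 in IAA7mII cells and 216, 305 and 287 in empty vector cells. In mock they were 516, 379 and 605 in IAA19mII cells, 223, 135 and 164 in IAA7mII cells and 149, 365 and 225 in empty vector cells. Within each treatment the IAA19mII arrays lay above all others, by a narrow margin in mock. UGT73B5 rose 1.9-fold in IAA19mII against empty vector cells with IAA (0.93 ± 0.31, limma adjusted p = 0.0287) and 2.05-fold in mock (1.04 ± 0.31, limma adjusted p = 0.0228). Against IAA7mII cells in mock it was 2.72-fold higher (1.44 ± 0.31, limma adjusted p = 0.00406), a call kept in all 16 other settings, and with IAA the difference was not called (0.95 ± 0.31). The call against empty vector cells with IAA was lost without empty vector IAA replicate 1 (adjusted p = 0.116), empty vector IAA replicate 3 (adjusted p = 0.0568), IAA19mII IAA replicate 1 (adjusted p = 0.0642), IAA19mII IAA replicate 2 (adjusted p = 0.0594) or IAA19mII IAA replicate 3 (adjusted p = 0.0604). In mock it was lost without empty vector mock replicate 1 (adjusted p = 0.166), empty vector mock replicate 3 (adjusted p = 0.0723), IAA19mII mock replicate 1 (adjusted p = 0.0703) or IAA19mII mock replicate 3 (adjusted p = 0.0962).

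UGT73B1 (AT4G34138), the third measured gene of this subfamily, had signals with IAA of 97.8, 153 and 154 in IAA19mII cells, 170.2, 153 and 215 in IAA7mII cells and 400.1, 288 and 233 in empty vector cells. In mock they were 93.1, 99.5 and 279 in IAA19mII cells, 224, 143 and 205 in IAA7mII cells and 589, 410.2 and 274 in empty vector cells. Both over-expressors lay below the empty vector arrays, except that IAA19mII mock replicate 3 overlapped them. In IAA19mII against empty vector cells it fell 2.13-fold with IAA (-1.09 ± 0.35, limma adjusted p = 0.0263) and 2.72-fold in mock (-1.44 ± 0.35, limma adjusted p = 0.00612). IAA7mII against empty vector cells was not called (-0.70 ± 0.35 with IAA, -1.05 ± 0.35 in mock). The mock call was lost without empty vector mock replicate 1 (adjusted p = 0.0597). With IAA it was lost without empty vector IAA replicate 1 (adjusted p = 0.125), empty vector IAA replicate 2 (adjusted p = 0.062) or IAA19mII IAA replicate 1 (adjusted p = 0.107), with median centring (adjusted p = 0.0616) and after quantile normalization (adjusted p = 0.0899).

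UGT73C7 (AT3G53160), whose product glucosylates hydroxycinnamic acids, and its neighbour UGT73D1 (AT3G53150) were both lower in IAA19mII cells. UGT73C7 signals in mock were 69.3, 55 and 117 in IAA19mII cells, 156, 276 and 442 in IAA7mII cells and 197, 380.4 and 525 in empty vector cells. With IAA they were 209, 129 and 254 in IAA19mII cells, 254, 230.5 and 259.6 in IAA7mII cells and 331, 624 and 467 in empty vector cells. The IAA19mII mock arrays lay below all others, while with IAA they overlapped the IAA7mII arrays.

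Against empty vector cells UGT73C7 fell 3.84-fold in IAA19mII mock cells (-1.94 ± 0.37, limma adjusted p = 0.000552), a call kept in all 16 other settings, and 2.3-fold with IAA (-1.20 ± 0.37, limma adjusted p = 0.0184). Against IAA7mII cells it was lower in mock (-1.61 ± 0.37, limma adjusted p = 0.0077) and not called with IAA (-0.35 ± 0.37). The IAA call against empty vector cells was lost without empty vector IAA replicate 2 (adjusted p = 0.105), empty vector IAA replicate 3 (adjusted p = 0.0545) or IAA19mII IAA replicate 2 (adjusted p = 0.101), and after quantile normalization (adjusted p = 0.057). The mock call against IAA7mII cells was lost without IAA7mII mock replicate 3 (adjusted p = 0.0907) or IAA19mII mock replicate 2 (adjusted p = 0.0553).

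UGT73D1 signals with IAA were 811, 820.2 and 591 in IAA19mII cells, 1676, 1994 and 1543 in IAA7mII cells and 1393, 1032 and 1142 in empty vector cells. The mock signals were 683, 725 and 608 in IAA19mII cells, 1486, 1091 and 1136 in IAA7mII cells and 1070.5, 1463 and 1244 in empty vector cells. The 6 IAA19mII arrays lay below all 12 others. Against IAA7mII cells UGT73D1 was 2.33-fold lower in IAA19mII cells with IAA (-1.22 ± 0.20, limma adjusted p = 0.000184) and 1.81-fold lower in mock (-0.86 ± 0.20, limma adjusted p = 0.00902). Against empty vector cells it was 1.6-fold lower with IAA (-0.68 ± 0.20, limma adjusted p = 0.0147) and 1.84-fold lower in mock (-0.88 ± 0.20, limma adjusted p = 0.00307). The mock call against IAA7mII cells was lost without IAA7mII mock replicate 1 (adjusted p = 0.0776) or IAA19mII mock replicate 3 (adjusted p = 0.0554). The IAA call against empty vector cells was lost without empty vector IAA replicate 1 (adjusted p = 0.0783) or IAA19mII IAA replicate 3 (adjusted p = 0.0803), and with median centring (adjusted p = 0.11).

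**Figure D2:**
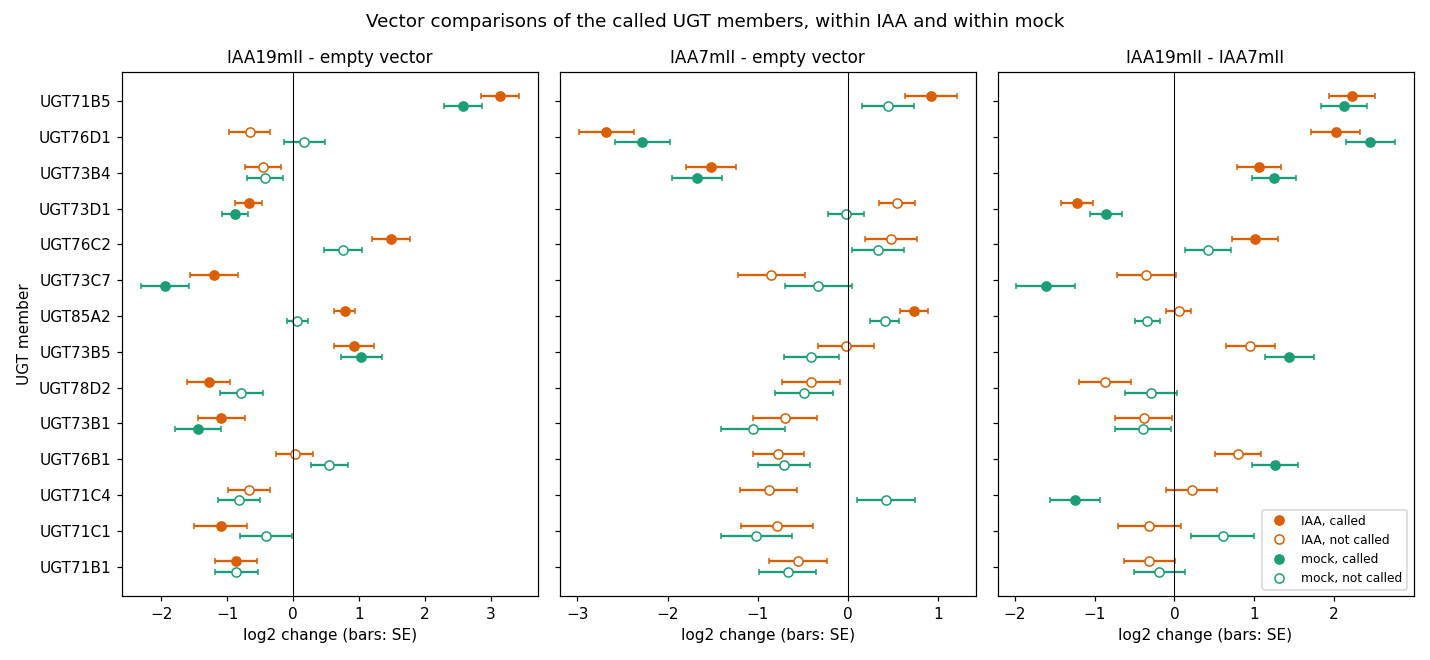
Log2 change (points) and standard error (bars) of the 14 called UGT genes for IAA19mII minus empty vector (left), IAA7mII minus empty vector (middle) and IAA19mII minus IAA7mII (right), with IAA in orange and in mock in green. Filled points passed the limma test, such as UGT71B5 at 3.14 and 2.57 in the left panel and UGT76D1 at -2.68 and -2.28 in the middle panel.

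UGT71B5 (AT4G15280) belongs to the subfamily of UGT71B6, an abscisic acid glucosyltransferase gene. Its signals with IAA were 1860.1, 2209.7 and 1979 in IAA19mII cells, 376, 431 and 453 in IAA7mII cells and 109.5, 285 and 307 in empty vector cells. Mock arrays read 1811, 1439 and 2766 in IAA19mII cells, 472, 396 and 426 in IAA7mII cells and 251, 303 and 397 in empty vector cells. All 6 IAA19mII arrays lay far above the 12 others. In IAA19mII against empty vector cells the gene rose 8.81-fold with IAA (3.14 ± 0.29, limma adjusted p = 5.28e-09) and 5.95-fold in mock (2.57 ± 0.29, limma adjusted p = 3.18e-07). In IAA19mII against IAA7mII cells it was 4.66-fold higher with IAA (2.22 ± 0.29, limma adjusted p = 8.17e-06) and 4.37-fold higher in mock (2.13 ± 0.29, limma adjusted p = 1.50e-05). These 4 calls held in all 16 other settings.

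IAA7mII cells with IAA were also called higher for UGT71B5 than empty vector cells with IAA (0.92 ± 0.29, limma adjusted p = 0.0244), where empty vector IAA replicate 1 was the lowest array. That call was lost without empty vector IAA replicate 1 (adjusted p = 0.229), IAA7mII IAA replicate 2 (adjusted p = 0.0596) or IAA7mII IAA replicate 3 (adjusted p = 0.0621). It was also lost without the intensity trend (adjusted p = 0.0606), with array weights (0.113) and in a fit of only those groups (0.0964). In mock the same difference was 0.44 ± 0.29 and was not called.

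The abscisic acid genes UGT71B6 and UGT71C5 were tested and called nowhere. UGT71B6 had mean signals of 182 ± 159 in IAA19mII cells with IAA and 86.4 ± 18.9 in mock (SD, n = 3 each), against 180 ± 8.74 and 176 ± 123 in empty vector cells with IAA and in mock. In IAA19mII cells with IAA, replicate 2 read 366 and the other arrays 89.3 and 89.7. UGT71C5 had mean signals of 143 ± 65.3 with IAA and 241 ± 205 in mock in IAA19mII cells, against 94.5 ± 12.9 and 99.7 ± 21.8 in empty vector cells. UGT71B1 (AT3G21750) was called lower in IAA19mII than in empty vector cells with IAA, at 118, 123 and 188 against 240.3, 279 and 291 (-0.87 ± 0.32, limma adjusted p = 0.04997). These arrays did not overlap, but the call lay at the threshold. IAA7mII cells with IAA read 160.2, 171 and 208, and mock signals were 172, 81.1 and 144 in IAA19mII cells, 198, 183 and 86.1 in IAA7mII cells and 228, 227 and 279 in empty vector cells. The call was lost without empty vector IAA replicate 1 (adjusted p = 0.0729), empty vector IAA replicate 2 (adjusted p = 0.123), empty vector IAA replicate 3 (adjusted p = 0.137), IAA19mII IAA replicate 1 (adjusted p = 0.138) or IAA19mII IAA replicate 2 (adjusted p = 0.128). Changed settings that lost it were pseudocount 1 (adjusted p = 0.0588), no filter (0.0641), median centring (0.113), quantile normalization (0.196) and the replicate block (0.0561).

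The cytokinin genes UGT76C2 (AT5G05860) and UGT76C1 (AT5G05870) are neighbours whose products attach glucose to nitrogen atoms of cytokinins. UGT76C2 signals with IAA were 762, 988 and 589 in IAA19mII cells, 689, 273 and 266 in IAA7mII cells and 217, 298 and 278 in empty vector cells. In mock they were 709, 619 and 762 in IAA19mII cells, 442, 446 and 684 in IAA7mII cells and 386, 405 and 424 in empty vector cells. IAA19mII arrays lay above empty vector arrays in both treatments, and IAA7mII IAA replicate 1 stood above the other arrays of its group.

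UGT76C2 rose 2.8-fold in IAA19mII against empty vector cells with IAA (1.49 ± 0.29, limma adjusted p = 0.000467), a call kept in all 16 other settings. In mock the change was 0.76 ± 0.29, limma adjusted p = 0.081. Against IAA7mII cells with IAA it was higher by 1.01 ± 0.29, limma adjusted p = 0.0327. That call was lost without IAA7mII IAA replicate 2 (adjusted p = 0.138), IAA7mII IAA replicate 3 (adjusted p = 0.139), IAA19mII IAA replicate 1 (adjusted p = 0.0737) or IAA19mII IAA replicate 2 (adjusted p = 0.139). It was also lost with median centring (adjusted p = 0.0635), without the intensity trend (0.0775), with array weights (0.137) and in a fit of only those groups (0.161).

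UGT76C1 signals with IAA were 214, 162 and 133 in IAA19mII cells, 109.9, 44.8 and 37.3 in IAA7mII cells and 141, 116 and 140.1 in empty vector cells, and no comparison called it. The IAA19mII and IAA7mII arrays did not overlap with IAA (1.30 ± 0.42, limma adjusted p = 0.0619). A further gene whose product can glucosylate cytokinins, UGT73C1, was above the 40th percentile on 5 arrays and was called nowhere.

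The auxin genes gave no call. UGT84B1 encodes the enzyme that forms the glucose ester of IAA, and its signal stayed between 1.1 and 17.2 on the 18 arrays, below the 40th percentile on each. UGT74D1, whose product glucosylates IAA and its oxidised form, was above that percentile on 10 arrays. Its mean signals were 26.3 ± 11.8 with IAA and 34.2 ± 12.8 in mock in IAA19mII cells, 23.9 ± 19.4 and 32.9 ± 25.3 in IAA7mII cells, and 31.7 ± 11.2 and 24.4 ± 12.4 in empty vector cells (SD, n = 3). The responses of UGT74D1 to IAA were -0.25 ± 0.44 in IAA19mII cells, -0.27 ± 0.44 in IAA7mII cells and 0.26 ± 0.44 in empty vector cells. Of the 8 genes of the auxin group only these 2 had a single-gene probeset under their UGT symbol, and the other 6 were not analysed here.

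In the flavonoid group, UGT78D2 (AT5G17050) encodes a glucosyltransferase that acts on position 3 of flavonols and anthocyanidins. Its signals with IAA were 64.1, 87.5 and 69.5 in IAA19mII cells, 124, 184 and 138 in IAA7mII cells and 187, 279 and 154 in empty vector cells. In mock they were 55.4, 93.3 and 64.8 in IAA19mII cells, 88.5, 122 and 65 in IAA7mII cells and 115, 148 and 134 in empty vector cells. The IAA19mII arrays lay below the empty vector arrays in both treatments. The gene fell 2.43-fold in IAA19mII against empty vector cells with IAA (-1.28 ± 0.33, limma adjusted p = 0.00522), a call kept in all 16 other settings, while in mock the change was -0.78 ± 0.33, limma adjusted p = 0.109. Its neighbour UGT78D3, a flavonol arabinosyltransferase gene, was tested, being above the 40th percentile on 4 arrays, and was called nowhere. UGT78D1, a flavonol rhamnosyltransferase gene, was not tested, being above the 40th percentile on 2 arrays, of which empty vector IAA replicate 1 read 127.8.

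UGT85A2 (AT1G22360) was higher in both over-expressors with IAA. Its signals with IAA were 7039, 5690.3 and 5286 in IAA19mII cells, 6975, 5365 and 5066 in IAA7mII cells and 3519, 3680 and 3190 in empty vector cells. The mock signals were 4305, 4388 and 5497 in IAA19mII cells, 5000.1, 5856 and 7209 in IAA7mII cells and 4257, 4698 and 4519 in empty vector cells. The empty vector IAA arrays lay below the 15 others. With IAA the gene was 1.72-fold higher in IAA19mII cells (0.78 ± 0.16, limma adjusted p = 0.000731) and 1.66-fold higher in IAA7mII cells (0.73 ± 0.16, limma adjusted p = 0.00158) than in empty vector cells. Both differences use the same empty vector arrays. The IAA7mII call was lost after quantile normalization (adjusted p = 0.0549), and the IAA19mII change was 0.47 there. The mock differences were not called (0.07 ± 0.16 for IAA19mII, 0.41 ± 0.16 for IAA7mII), and neither was the change of response (0.72 ± 0.23, limma adjusted p = 0.586 for IAA19mII, 0.32 ± 0.23, limma adjusted p = 1 for IAA7mII). The other 4 UGT85A genes measured, of which UGT85A3, UGT85A5 and UGT85A7 are neighbours of UGT85A2, were tested and called nowhere. In at least 1 of the 12 comparisons, 35.9% of all tested probesets were called. These 3 neighbours had low signals, above the 40th percentile on 10, 6 and 6 arrays, and UGT85A4 was above it on 17.

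In the UGT71C subfamily, UGT71C4 (AT1G07250) was lower in IAA19mII than in IAA7mII cells in mock, at 217, 146 and 87.8 against 283, 567 and 283 (-1.24 ± 0.32, limma adjusted p = 0.0187). These arrays did not overlap, IAA7mII mock replicate 2 was the highest of them, and empty vector mock arrays read 263, 262 and 265. The call was lost without IAA7mII mock replicate 2 (adjusted p = 0.166), IAA19mII mock replicate 2 (adjusted p = 0.0531) or IAA19mII mock replicate 3 (adjusted p = 0.159). With IAA the signals were 261, 242 and 186 in IAA19mII cells, 284, 144 and 176 in IAA7mII cells and 397, 381 and 333 in empty vector cells, and IAA19mII against IAA7mII gave 0.22 ± 0.32. UGT71C1 (AT2G29750) was called lower in IAA19mII than in empty vector cells with IAA (-1.10 ± 0.40, limma adjusted p = 0.044), at 6.7, 17 and 1.8 against 21.3, 39.7 and 47.3 without overlap. On the other 12 arrays it lay between 1.5 and 38. The IAA19mII signals were all below the 40th percentile of their arrays, so no fold is given. That call was lost without empty vector IAA replicate 2 (adjusted p = 0.122), empty vector IAA replicate 3 (adjusted p = 0.158), IAA19mII IAA replicate 1 (adjusted p = 0.0903) or IAA19mII IAA replicate 3 (adjusted p = 0.152). Pseudocount 1 (adjusted p = 0.0688), median centring (0.108), quantile normalization (0.0909), the replicate block (0.0517) and a fit of only those groups (0.0745) also lost it. UGT71C2, UGT71C3 and UGT71C5 were called nowhere, and UGT71C3 was above the 40th percentile on only 5 arrays.

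The sinapate and monolignol, glucosinolate and sterol groups had 5, 1 and 1 tested members. None was called in the 12 comparisons, against 35.9% of all tested probesets called in at least 1. So few members say little about a group, and UGT72E1, UGT84A1 and UGT84A3 were above the 40th percentile on only 6, 5 and 7 arrays. In the sinapate and monolignol group 5 of 7 members were tested, among them UGT72E2, whose product glucosylates monolignols. UGT72E2 had mean signals of 304 ± 132 with IAA and 392 ± 129 in mock in IAA19mII cells, 124 ± 143 and 127 ± 67.9 in IAA7mII cells, and 191 ± 55.8 and 202 ± 39.7 in empty vector cells (SD, n = 3). Its difference between IAA19mII and IAA7mII cells was 1.61 ± 0.51, limma adjusted p = 0.0565 with IAA, and 1.59 ± 0.51, limma adjusted p = 0.0805 in mock, with no overlap of arrays in mock. UGT74B1, a glucosinolate glucosyltransferase gene, and UGT80B1, a sterol glucosyltransferase gene, were tested and called nowhere. UGT87A2, a gene that affects flowering time, had signals between 8606 and 16224 on the 18 arrays, and its changes in the 12 comparisons lay between -0.0034 and 0.38, none called. In the stress and xenobiotic group all 7 members were tested and 5 were called in at least 1 of the 12 comparisons (35.9% of all tested probesets). With IAA, IAA19mII against empty vector cells had 1 higher (UGT73B5; 9.26% of all probesets) and 3 lower (UGT73B1, UGT73C7 and UGT71C1; 14.3%).

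Counts over the family were set beside those over all tested probesets. In IAA19mII against empty vector cells with IAA, 10 of 41 members (24.4%) were called, against 23.5% of all tested probesets. Of these, 4 were higher (9.26% of all probesets) and 6 lower (14.3%). In mock 5 members (12.2%) were called, against 14.5% of all probesets, with 2 higher (6.64%) and 3 lower (7.83%). In IAA7mII against empty vector cells with IAA, 4 members (9.76%) were called, against 19.5% of all probesets, with 2 higher (7.72%) and 2 lower (11.7%). In mock 2 members (4.88%) were called, against 11.4%, with 0 higher (5.33%) and 2 lower (6.09%).

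In IAA19mII against IAA7mII cells with IAA, 5 members (12.2%) were called, against 6.64% of all probesets, with 4 higher (4.17%) and 1 lower (2.47%). In mock 8 members (19.5%) were called, against 4.37%, with 5 higher (3.14%) and 3 lower (1.23%). No set test was made of these shares. The differences of both over-expressors from empty vector cells within a treatment share the empty vector arrays.

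The members' median change for IAA19mII against empty vector was 0.02 with IAA (-0.17 over all tested probesets) and 0.08 in mock (-0.14). For IAA7mII against empty vector it was -0.05 with IAA (-0.17) and -0.03 in mock (-0.09), and for IAA19mII against IAA7mII it was 0.17 with IAA (-0.01) and 0.08 in mock (-0.06). Centring the arrays on their medians moved the median of all probesets to -0.04 for IAA19mII and 0.05 for IAA7mII against empty vector with IAA, to -0.03 for IAA19mII in mock, and to -0.08 for the response of empty vector cells. It moved it to 0.09 for the change of response with IAA7mII, to -0.09 for the difference between the IAA19mII and IAA7mII responses, and by under 0.1 in the other comparisons, including to -0.09 for IAA19mII against IAA7mII with IAA.

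The count for IAA19mII against empty vector with IAA was 6 (4 higher and 2 lower) with median centring, and likewise with quantile normalization. It was also 6 when replicate 2 or 3 of empty vector IAA or replicate 1 of IAA19mII IAA was left out. In mock it was 9 with array weights (3 higher and 6 lower), 9 in a fit of only those groups (4 higher and 5 lower) and 3 without replicate 1 of empty vector mock. For IAA7mII against empty vector in mock it was 4, all lower, with array weights and in a fit of only those groups. With IAA it was 7 with the 60th percentile filter, which leaves fewer members, and 8 without replicate 1 of IAA7mII IAA. For IAA19mII against IAA7mII with IAA it was 3 in a fit of only those groups. In mock that count was 5 without replicate 3 of IAA19mII mock. The share of all tested probesets called was not counted under these alternatives, so these counts have no background beside them.

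Mock and IAA arrays are separate samples, and each vector pair was compared within each treatment. Most arrays (15) were closest to arrays of their own replicate number, so mock and IAA arrays of a number may not be independent. Whether they came from separate cell preparations was not tested. Calls or signs shared by the treatments are therefore not counted here as independent repeats. All 5 genes called in IAA19mII against empty vector cells in mock (UGT71B5, UGT73B1, UGT73B5, UGT73C7 and UGT73D1) were also among the 10 called with IAA. Both genes called for IAA7mII in mock (UGT73B4 and UGT76D1) were among the 4 called with IAA. Of the genes called in IAA19mII against IAA7mII cells, 4 (UGT71B5, UGT73B4, UGT73D1 and UGT76D1) were shared by the 8 in mock and the 5 with IAA. The share of all tested probesets called in both treatments was not counted, so these overlaps have no background beside them. The change had the same sign in mock and with IAA for 31 of 41 members in IAA19mII against empty vector cells (75.6%, against 76.7% of all tested probesets). For IAA7mII against empty vector cells it was again 31 (75.6%, against 75.4%), and for IAA19mII against IAA7mII cells 29 (70.7%, against 62.6%).

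**Figure D3:**
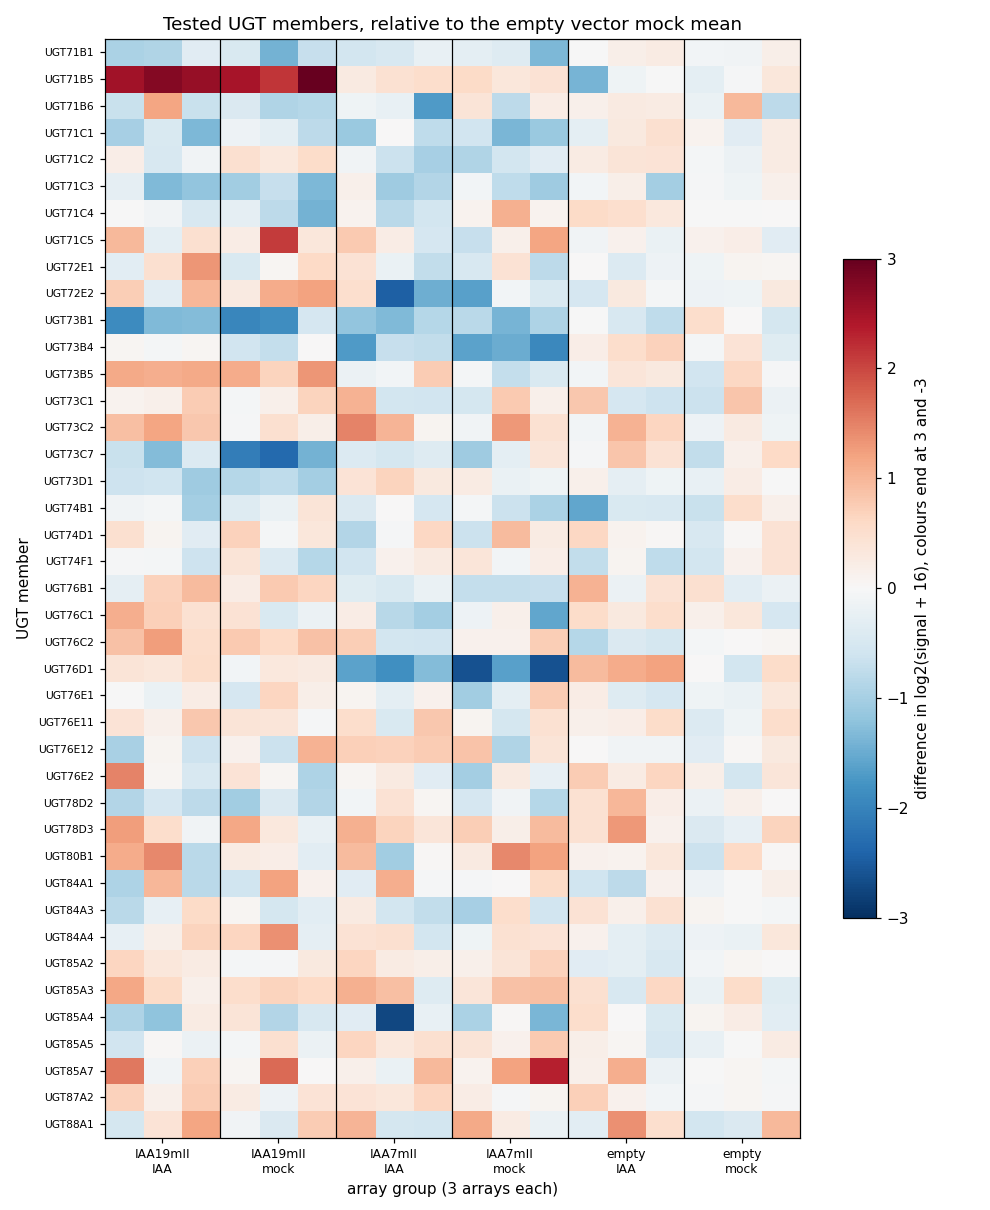
Difference in log2(signal + 16) of each of the 41 tested UGT genes (rows) on each of the 18 arrays (columns, 3 per group) from that gene's mean on the empty vector mock arrays, with red higher and blue lower. UGT71B5 stands out in the 6 IAA19mII columns and UGT76D1 in the 6 IAA7mII columns, and UGT73B4 was lower in the IAA7mII columns than in the others of the same treatment, while most rows show no block that follows a vector.

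By position, 30 of the 47 members had another member within 3 genes, in 13 groups of neighbours. UGT73B4 and UGT73B5 were both called higher in IAA19mII than in IAA7mII cells in mock. Against empty vector cells the calls were lower with IAA7mII for UGT73B4 and higher with IAA19mII for UGT73B5. UGT76C2 was called and UGT76C1 was not, and differences between neighbours were not tested. UGT73C7 and UGT73D1 were both called lower in IAA19mII against empty vector cells, in each treatment. None of the 3 UGT84A neighbours (UGT84A1, UGT84A3 and UGT84A4) and none of the 4 UGT76E genes was called in the 12 comparisons. Of all tested probesets, 35.9% were called in at least 1. The products of the UGT84A genes form glucose esters of hydroxycinnamic acids. UGT84A1, UGT84A3 and UGT84A4 were above the 40th percentile on 5, 7 and 14 arrays. For UGT76E1, UGT76E11, UGT76E12 and UGT76E2 it was 3, 3, 5 and 18 arrays. Related genes can share probe matches, and whether any of these signals holds a relative's RNA was not tested.

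The response to 3 h of IAA, within each vector, gave no called member. In IAA19mII cells limma called 0 of 41 members (0.0888% of all tested probesets), with 3 at an unadjusted p under 0.05 (8.82% of all tested probesets), and the members' changes lay between -0.68 and 1.15. In IAA7mII cells it called 0 (0.0888%), with 5 at an unadjusted p under 0.05 (7.73%) and changes between -0.996 and 0.69. In empty vector cells it called 0 (0.734%), with 4 at an unadjusted p under 0.05 (5.16%) and changes between -0.84 and 1.09. The members' median change was 0.10 in IAA19mII cells (0.00 over all tested probesets), 0.02 in IAA7mII cells (-0.02) and 0.19 in empty vector cells (0.03). The median standard error of a member's response was 0.42.

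UGT76D1 came closest in empty vector cells, where the 3 IAA arrays lay above the 3 mock arrays, at 619, 698 and 739 against 314, 207 and 464 (1.09 ± 0.31, limma adjusted p = 0.13). It was called there with array weights (adjusted p = 0.0116) and in none of the other settings. Its responses were 0.26 ± 0.31 in IAA19mII cells and 0.69 ± 0.31 in IAA7mII cells. In IAA19mII cells the lowest p was that of UGT73C7, with signals of 209, 129 and 254 with IAA against 69.3, 55 and 117 in mock (1.15 ± 0.37, limma adjusted p = 0.336). In IAA7mII cells it was that of UGT71C4 (-0.83 ± 0.32, limma adjusted p = 0.553). IAA and mock arrays did not overlap for 4 members higher and 1 lower with IAA in IAA19mII cells (6.13% higher and 5.65% lower among all tested probesets). In IAA7mII cells it was 4 higher and 0 lower (4.48% and 5.96%), and in empty vector cells 4 higher and 2 lower (8.81% and 6.48%).

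**Figure D4:**
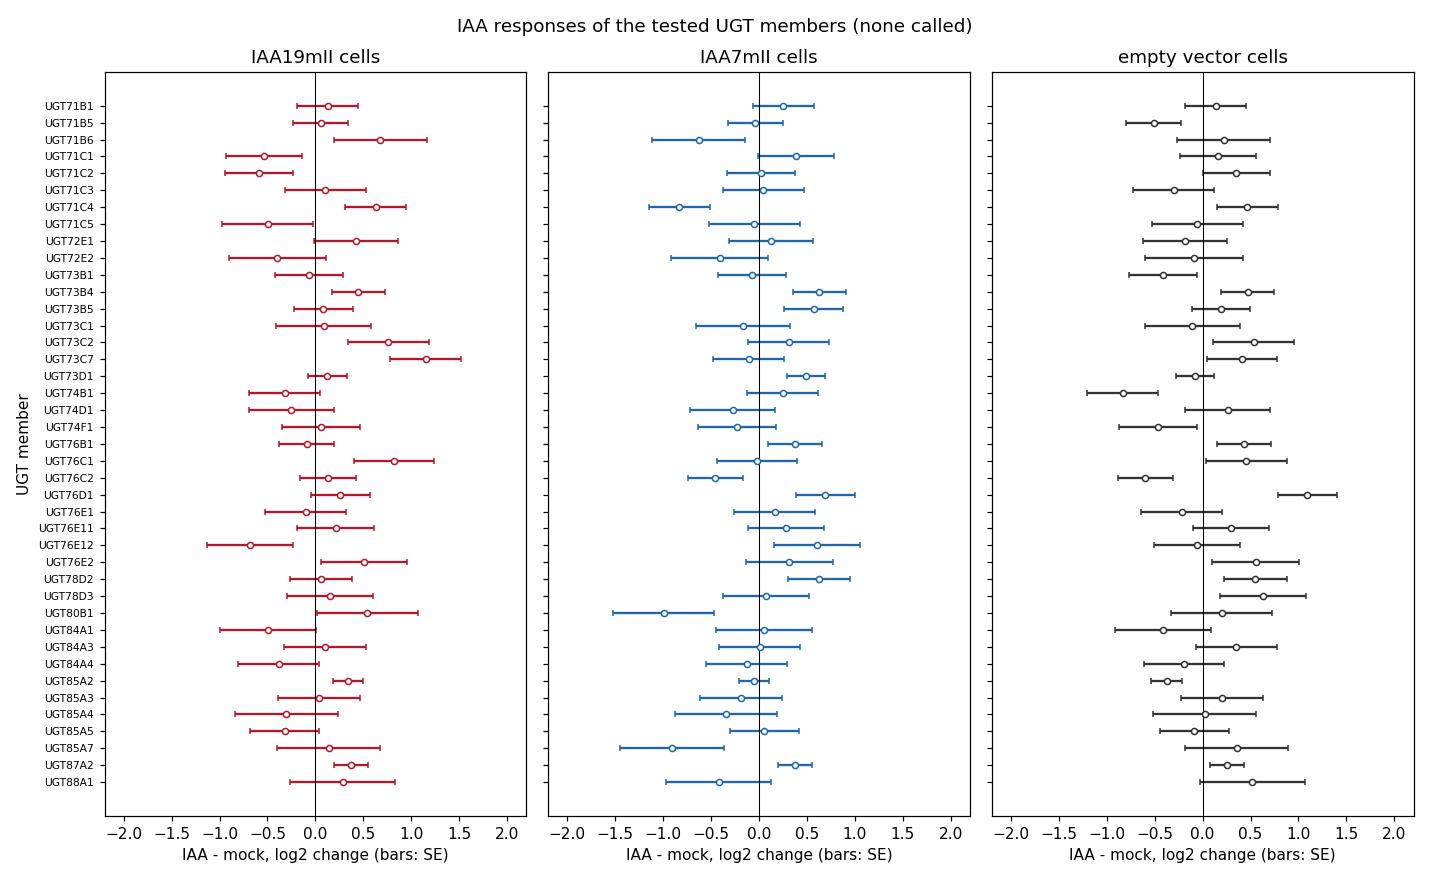
Log2 change with IAA against mock (points) and standard error (bars) of the 41 tested UGT genes in IAA19mII cells (left), IAA7mII cells (middle) and empty vector cells (right). All points are open because none passed the limma test; the farthest are UGT73C7 at 1.15 in IAA19mII cells and UGT76D1 at 1.09 in empty vector cells on the higher side.

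Differences between responses were tested as interaction terms, and limma called 0 of 41 members in each. For IAA19mII against empty vector cells 0.0888% of all tested probesets were called. At an unadjusted p under 0.05 there was 1 member (UGT85A2), against 4.88% of all probesets. For IAA7mII against empty vector cells 0.0651% were called, and 2 members (UGT71C4 and UGT74B1) had an unadjusted p under 0.05, against 5.0%. For IAA19mII against IAA7mII cells 0.0178% were called, and 3 members (UGT71C4, UGT73C7 and UGT80B1) had an unadjusted p under 0.05, against 6.34%. UGT85A2 had the lowest p of the first (0.72 ± 0.23, limma adjusted p = 0.586). UGT71C4 had the lowest of the others, at -1.30 ± 0.45, limma adjusted p = 0.75 for IAA7mII against empty vector cells, and at 1.46 ± 0.45, limma adjusted p = 0.649 for IAA19mII against IAA7mII cells.

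Other genes of conjugating metabolism came from a rule on symbols or from fixed lists. Of the fixed lists few members had a single-gene probeset. Glutathione transferases, the other large family of conjugating enzymes in plant detoxification, were taken by symbol among genes with a single-gene probeset. That gave 14 genes, which need not be the whole family, and 11 were tested. None was called in a response to IAA. There, 0.0888% of all tested probesets were called in IAA19mII cells, 0.0888% in IAA7mII cells and 0.734% in empty vector cells. In IAA19mII against IAA7mII cells with IAA 3 were higher (4.17% of all tested probesets) and 1 lower (2.47%), with a median change of 0.24 (-0.01 over all). In mock 2 were higher (3.14%) and 0 lower (1.23%), with a median of 0.14 (-0.06). In IAA19mII against empty vector cells 2 were higher and 1 lower with IAA (9.26% and 14.3% of all probesets) and again in mock (6.64% and 7.83%), with medians of 0.33 with IAA and 0.16 in mock. In IAA7mII against empty vector cells 0 were higher and 1 lower with IAA (7.72% and 11.7%) and in mock (5.33% and 6.09%), with medians of -0.21 with IAA and -0.12 in mock. GSTU27 was 2.04-fold higher in IAA19mII than in IAA7mII cells with IAA (1.03 ± 0.23, limma adjusted p = 0.00622). In mock this difference was 3.08-fold (1.62 ± 0.23, limma adjusted p = 3.84e-05). GSTU22 fell in both over-expressors against empty vector cells with IAA, 1.81-fold for IAA19mII (-0.86 ± 0.29, limma adjusted p = 0.035) and 2.88-fold for IAA7mII (-1.53 ± 0.29, limma adjusted p = 0.000435). It also fell in mock, 2.73-fold for IAA19mII (-1.45 ± 0.29, limma adjusted p = 0.00109) and 2.51-fold for IAA7mII (-1.33 ± 0.29, limma adjusted p = 0.00297).

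Of the phenylpropanoid list 3 genes were tested. HCT, which encodes a transferase of lignin precursor synthesis, was higher in IAA19mII than in IAA7mII cells with IAA (1.66 ± 0.27, limma adjusted p = 0.000138) and in mock (1.11 ± 0.27, limma adjusted p = 0.0107). CCR2, a cinnamoyl-CoA reductase gene, was higher in mock (2.18 ± 0.52, limma adjusted p = 0.011) and not called with IAA (1.50 ± 0.52). Its mean signals in mock were 110 ± 82.8 in IAA19mII cells and 10.1 ± 13 in IAA7mII cells (SD, n = 3). The IAA7mII mean lay below the 40th percentiles of those arrays (23 to 28.4). The list of UDP-sugar enzymes had a single tested gene, USP, which encodes a pyrophosphorylase that makes UDP-sugars, and it was called in none of the 12 comparisons.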

How the data were processed

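Expression was measured on 18 single-colour ATH1 arrays, 3 in each of 6 groups. The deposited intensity values are MAS5 signals, per the submitters' processing notes. The sources used here do not give the MAS5 version. The authors' scaling was kept, and the trimmed means (2% trim) of the arrays lay between 246 and 248. Arrays of a group correlated at 0.918 to 0.973 across probesets. Nothing in the labels ties replicates to separate cultures, so the p-values reflect only the spread among these arrays, which may be technical, and the number of arrays limits the precision.

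A probeset was tested if at least 3 arrays had it above their own 40th percentile (16892 of 22746). The test was limma 3.58.1 (R 4.3.3) on log2(signal + 16), taking all 18 arrays and 6 group means, with an intensity trend and Benjamini-Hochberg adjustment within each of 12 comparisons. Gene names came from the platform's probe annotation, joined by gene identifier to a reference table of assembly TAIR10.1, used for names and neighbours only. The symbol CHI belongs there to a chitinase gene and was taken out of the phenylpropanoid list. The rule for named genes gives array values for every member called at least once, and values for up to 6 uncalled members with a hormone or flavonoid role. UGT71C5, UGT72E2, UGT73C1, UGT74B1, UGT80B1 and UGT87A2 fall outside it and were chosen after their values were seen. The members and lists were chosen with earlier results of these data known. The fit was tested on simulated data. The alternatives changed the pseudocount (1 or 64), the filter (none, or the 60th percentile), the scaling (median centring or quantile), the trend, array weights, a replicate block, the groups fitted, and each array in turn.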

Additional observations from a re-analysis of the deposited data

How the results depend on the processing

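With array weights the count of called UGT genes was 1 in place of 0 for the response of empty vector cells, 9 in place of 5 for IAA19mII against empty vector in mock and 4 in place of 2 for IAA7mII against empty vector in mock. Fitting only the groups compared gave 9 for IAA19mII and 4 for IAA7mII against empty vector in mock, and 3 in place of 5 for IAA19mII against IAA7mII with IAA. The 60th percentile filter, which leaves 21 members, gave 7 in place of 4 for IAA7mII against empty vector with IAA. Median centring and quantile normalization each gave 6 in place of 10 for IAA19mII against empty vector with IAA. The cause of these shifts was not tested. The share of all tested probesets called was not counted in these settings or in those of the next paragraph.

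Leaving out each array in turn gave 6 to 7 calls with IAA and 3 to 5 in mock for IAA19mII against empty vector, 3 to 8 with IAA and 2 to 3 in mock for IAA7mII against empty vector, and 4 to 6 with IAA and 5 to 8 in mock for IAA19mII against IAA7mII. It gave 0 in every response and difference of responses. Of the 34 calls of single genes, 17 held in every setting, and of 543 repeats 475 kept the call, 68 lost it and 0 changed sign. Replicate numbers were not used to pair the arrays in the main fit. Deviations of same-numbered arrays correlated at -0.06 to 0.16 (median 0.01, over 0.1 in 1 of 45 pairs). Those of differently numbered arrays correlated at -0.15 to 0.12 (median -0.01), and 15 of 18 arrays were closest to their own number. With the replicate number as a block the counts were 8 with IAA and 5 in mock for IAA19mII against empty vector, 6 with IAA and 2 in mock for IAA7mII against empty vector, 6 with IAA and 8 in mock for IAA19mII against IAA7mII, and 0 in the responses and their differences. A scan batch was not used, since no scan date was at hand, and no UGT gene had a second single-gene probeset. For 22 tested genes some arrays lay below the 40th percentile (20.6 to 32.3), which limits their precision.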
